A study of Homo sapiens with 8 samples.

Results

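The AP-1 transcription factor is a dimer, and the genes of its JUN class (*JUN*, *JUNB* and *JUND*) and its FOS class (*FOS*, *FOSB*, *FOSL1* and *FOSL2*) are described here. They were taken by symbol from the expression table, and all 7 were present among its 13842 genes. The RNA-seq libraries came from MCF10A, a non-tumorigenic breast epithelial cell line, and from DCIS.COM, a line that models ductal carcinoma in situ (DCIS). Both lines had been stably transduced with a lentiviral pLOC vector, either empty (pLOC-empty) or carrying the long non-coding RNA *MALINC1* (pLOC-*MALINC1*), and selected with blasticidin at 10 µg/ml, so that all groups carried a vector. There were 2 libraries in each of the 4 groups and 8 in all. Both lines were grown in DMEM/F-12 with 5% horse serum, but only the MCF10A medium also held epidermal growth factor, hydrocortisone, insulin and cholera toxin. Line and medium cannot be told apart in any comparison between the lines, and the sources used here do not say whether the 2 libraries of a group came from separate cultures. The p-values therefore measure the spread between libraries, which may be technical. The cells with each vector are different transduced populations, and the number of transductions is not given in the sources used here. Other differences between these populations cannot be told apart from those due to *MALINC1*. Below, an effect of or response to *MALINC1* means the difference between the vectors within a line.

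JUN-class proteins can pair with each other, whereas FOS-class proteins bind DNA only together with a partner such as a JUN-class protein. The dimers bind the TGANTCA element and relay growth factor, stress and RAS-MAP kinase signals to genes of proliferation, migration and matrix turnover. *FOS*, *FOSB*, *JUN* and *JUNB* are known as immediate-early genes, *JUND* is known for a more constant level, and *FOSL1* and *FOSL2* (encoding FRA1 and FRA2) are known to be induced later and to be under the control of AP-1 itself in many cells.

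Between pLOC-empty and pLOC-*MALINC1* the subunits changed in different directions, and not alike in the lines. With pLOC-*MALINC1*, *FOS* and *FOSL1* rose over 3-fold in MCF10A, where *JUN*, *JUNB*, *JUND* and *FOSL2* fell by less than 2-fold. In DCIS.COM, *FOSL2* fell over 4-fold, while *JUN*, *JUNB* and *FOSL1* rose by less than 2-fold. Between the lines with the empty vector, the largest difference was that of *JUN*, which was 19.6-fold lower in DCIS.COM. *JUNB* had the highest level per kb of exon in every library.

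*JUN* lies on chromosome 1 of GRCh37 (the build also known as hg19) from 59242517 to 59249720 on the minus strand. *JUNB* lies on chromosome 19 from 12902300 to 12904129 on the plus strand, and *JUND* on chromosome 19 from 18390504 to 18392432 on the minus strand. The longest annotated transcript of each JUN-class gene has 1 exon, whereas that of each FOS-class gene has 4. *FOS* lies on chromosome 14 from 75745529 to 75748933 on the plus strand, and *FOSB* on chromosome 19 from 45971253 to 45978437 on the plus strand. *FOSL1* lies on chromosome 11 from 65659520 to 65668044 on the minus strand, and *FOSL2* on chromosome 2 from 28615315 to 28640184 on the plus strand. The annotated exons cover between 1830 nt (*JUNB*) and 7162 nt (*FOSL2*), so levels of different genes are compared below only per kb of exon.

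AP-1 genes are known to carry AP-1 and CRE elements of their own, so the 250 bases before and the 50 bases after the start of each gene (RefSeq, GRCh38.p14) were searched on both strands. RefSeq sequences were matched for 6 of the 7 genes. A CRE (TGACGTCA) was found for *JUND* and the variant TGACATCA for *JUN*, and they are printed because they distinguish these genes from the other matched ones. The capitals mark the element, and each line gives 30 bases of the gene's own strand.
*JUN*, chr1:58784096-58784125, minus strand, first base of the element 67 bases before the start: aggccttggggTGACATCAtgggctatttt
*JUND*, chr19:18281804-18281833, minus strand, first base of the element 200 bases before the start: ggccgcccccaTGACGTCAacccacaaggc
Of 35116 RefSeq promoters of this length, 2.61% held TGACATCA, 1.85% held TGACGTCA and 7.71% held TGANTCA. This last element was found for *FOSL2* only, 4 bases after the start. The promoters of *FOS*, *FOSB* and *JUNB* held none of these 3 elements, which says only that the letters are not in this window.

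The reads counted on genes ranged from 20604377 to 37550457 per library. *MALINC1* itself had 1.32 ± 0.357 CPM (read counts scaled to library size, mean ± SD, n = 2 in this and all further group values) in the MCF10A control libraries and 12.6 ± 1.05 CPM with its vector. The DCIS.COM values were 1.32 ± 0.146 and 21.9 ± 3.76 CPM. All 10 basal breast epithelial markers were in the table, with a summed level of 22070 to 29800 CPM in MCF10A and 5457 to 5545 CPM in DCIS.COM. That sum rested mainly on keratins (with pLOC-empty, *KRT5* 6150 and 1069 CPM, *KRT17* 9985 and 970 CPM). Of the other basal markers, named after their values were seen, *ITGB4* (517 and 1629 CPM) and *TP63* (4.99 and 56.7 CPM) went the other way. Of 10 luminal markers 8 were present, at 1428 to 1820 and 3586 to 3834 CPM, and *PGR* was not among the genes of the table. Of 10 markers each, 3 stromal ones (2.34 to 98.4 CPM), 2 leukocyte ones (4.25 to 14.4 CPM, without *PTPRC*) and 1 endothelial one (0.159 to 7.28 CPM) were present. With pLOC-*MALINC1* the summed basal level in MCF10A was 29210 to 29800 CPM against 22070 to 22130 CPM in controls, the stromal level was 45.0 to 47.5 against 96.8 to 98.4 CPM, and the luminal level was 1716 to 1820 against 1428 to 1528 CPM. Within the luminal sum, *KRT19* (1.51 against 3.07 CPM) and *ERBB3* (63.0 against 77.4 CPM) were lower. In DCIS.COM the endothelial marker *PECAM1* stood at 0.159 to 0.249 against 6.13 to 7.28 CPM, the stromal level at 2.34 to 2.43 against 6.88 to 7.37 CPM, and the leukocyte level at 8.04 to 8.27 against 4.25 to 4.34 CPM. All libraries came from cultured epithelial lines and not from tissue, so these markers are read as levels within a line, not as amounts of other cell types. The part of these marker differences in the results was not tested. In bulk RNA, fewer cells with a transcript and less of it per cell cannot be told apart.

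Log2 fold changes come from limma fitted to all 13842 genes, with Benjamini-Hochberg adjusted p over all of them. A gene is said to have risen or fallen where the adjusted p was below 0.01, and is called a DEG where the change was also over 2-fold. In MCF10A, 2 of the 7 subunits were DEGs with pLOC-*MALINC1*, against 5.5% of all genes. Both were higher, against 2.99% of all genes in that direction. At any fold 6 subunits passed, against 39.6% of all genes, with 2 higher (all genes 21.5%) and 4 lower (all genes 18.1%). The 2 libraries of one vector did not overlap those of the other for any of the 7 subunits, as for 76.5% of all genes. In DCIS.COM, 1 subunit was a DEG, against 4.53% of all genes. It was lower, against 3.08% of all genes in that direction, and 0 were higher, against 1.44%. At any fold 4 passed, against 33.2% of all genes, with 3 higher (all genes 16.4%) and 1 lower (all genes 16.7%). The groups again did not overlap for any of the 7, against 73.1% of all genes.

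**Figure D1:**
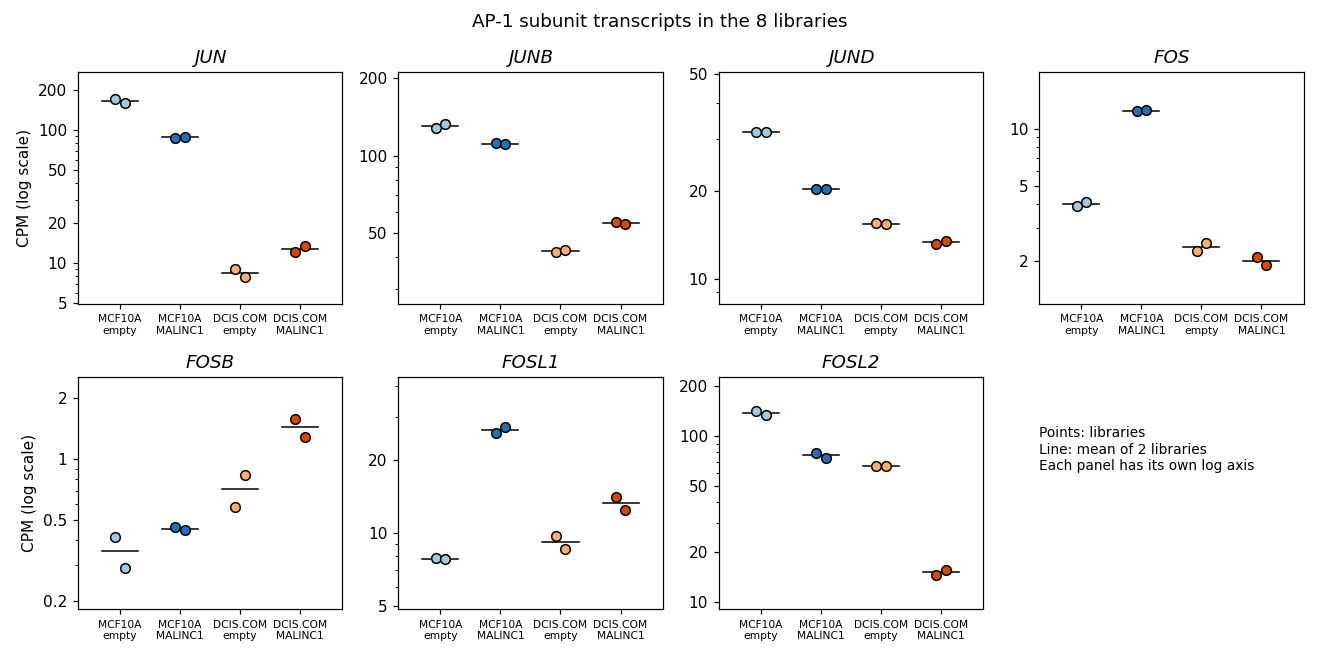
Level of each AP-1 subunit in CPM (log axis, a separate range for each gene) in the 2 libraries of each group, with a line at the mean. *FOS* stands apart in MCF10A with pLOC-*MALINC1*, at 12.4 and 12.5 CPM, and *FOSL2* in DCIS.COM with pLOC-*MALINC1*, at 14.6 and 15.7 CPM.

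Among the JUN-class genes, *JUN* encodes the strongest activator of the class and is known to drive its own promoter. Its level was 171 and 160 CPM in the MCF10A controls (the pLOC-empty libraries) and 87.1 and 89.3 CPM in the pLOC-*MALINC1* libraries, where it fell by 0.91 on the log2 scale (standard error 0.069, adjusted p = 4.18e-07). The DCIS.COM libraries held 9.03 and 7.95 CPM without and 12.1 and 13.4 CPM with the *MALINC1* vector, where *JUN* rose by 0.59 (standard error 0.069, adjusted p = 2.13e-05). In a limma fit of DCIS.COM alone, this rise did not pass (adjusted p = 0.0158). The directions in the lines were opposite, and the DCIS.COM change exceeded the MCF10A change by 1.5 on the log2 scale (standard error 0.097, adjusted p = 1.16e-07). All 4 MCF10A libraries lay above all 4 DCIS.COM libraries.

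*JUNB*, which encodes a weaker activator that can restrain JUN, stood at 128 and 133 CPM in the control and at 112 and 111 CPM in the *MALINC1* libraries of MCF10A. It fell there by 0.23 on the log2 scale (standard error 0.037, adjusted p = 0.000282). Its 42.2 and 42.6 CPM in the DCIS.COM controls compared with 55.1 and 54.1 CPM under *MALINC1*, where it rose by 0.36 (standard error 0.037, adjusted p = 6.78e-06). As for *JUN*, the directions were opposite, and the log2 changes differed by 0.59 (standard error 0.053, adjusted p = 1.94e-06). *JUNB* lies within the annotated span of *HOOK2* on the opposite strand, and 259 nt of its exons are also exons of *HOOK2*. The strand setting of the read counting is not given in the sources used here, so reads of the shared stretch cannot be told apart. *HOOK2* had 18.2 and 21.3 CPM in MCF10A, against 39.8 and 36.3 CPM in DCIS.COM (pLOC-empty and pLOC-*MALINC1*). Its log2 fold changes were 0.23 in MCF10A and -0.13 in DCIS.COM, opposite in sign to those of *JUNB*. The *HOOK2* change in DCIS.COM did not pass (limma, adjusted p = 0.0873). The part of *HOOK2* reads in the *JUNB* values was not tested.

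*JUND*, whose product is known to slow growth in several cell types, was the JUN-class gene with the same sign in both lines. The MCF10A controls had 31.8 and 31.9 CPM and the MCF10A *MALINC1* libraries 20.3 and 20.2 CPM, where it fell by 0.65 on the log2 scale (standard error 0.061, adjusted p = 2.84e-06). The DCIS.COM levels were 15.5 and 15.3 CPM in controls and 13.2 and 13.5 CPM with *MALINC1*. The log2 fold change of -0.21 there had a 95% interval of -0.34 to -0.07 and did not pass (adjusted p = 0.0148). The difference of 0.44 between the log2 changes passed the test (standard error 0.087, adjusted p = 0.00115).

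Among the FOS-class genes, *FOS*, the textbook immediate-early gene, was a DEG in MCF10A. The pLOC-empty libraries held 3.93 and 4.10 CPM, from 112 and 91 reads, and the pLOC-*MALINC1* libraries 12.4 and 12.5 CPM, from 442 and 329 reads. It rose there by 1.63 on the log2 scale, or 3.10-fold (standard error 0.13, adjusted p = 8.70e-07). Levels were lower in DCIS.COM, at 2.26 and 2.51 CPM in controls and 2.11 and 1.90 CPM with *MALINC1*, from 47 to 70 reads. The log2 fold change of -0.25 did not pass (95% interval -0.54 to 0.04, adjusted p = 0.152). The change in DCIS.COM was below that in MCF10A by a log2 difference of -1.88 (standard error 0.19, adjusted p = 5.78e-06).

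*FOSL1*, whose product FRA1 is known to be raised in invasive breast cancer cells, rose in both lines. MCF10A went from 7.90 and 7.78 CPM in controls to 25.8 and 27.3 CPM with *MALINC1*, a rise of 1.76 on the log2 scale or 3.38-fold (standard error 0.092, adjusted p = 1.77e-08). DCIS.COM went from 9.68 and 8.62 CPM to 14.1 and 12.4 CPM, a rise of 0.53 (standard error 0.092, adjusted p = 0.000498). In a limma fit of DCIS.COM alone, that rise did not pass (adjusted p = 0.0219). The rise was a DEG in MCF10A and stayed under 2-fold in DCIS.COM, with a log2 difference of -1.23 between the lines (standard error 0.13, adjusted p = 8.87e-06).

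*FOSL2*, whose product FRA2 is the close relative of FRA1, fell in both lines. In MCF10A, controls held 141 and 134 CPM and *MALINC1* libraries 79.5 and 74.1 CPM, so that *FOSL2* fell by 0.84 on the log2 scale (standard error 0.051, adjusted p = 5.81e-08). Controls of DCIS.COM held 66.3 and 65.8 CPM and its *MALINC1* libraries 14.6 and 15.7 CPM, and *FOSL2* fell by 2.12 on the log2 scale, or 4.36-fold (standard error 0.051, adjusted p = 1.64e-11). The fall was steeper in DCIS.COM, by a log2 difference of -1.28 (standard error 0.072, adjusted p = 2.63e-08). *FOSL1* and *FOSL2* thus had opposite signs in both lines.

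*FOSB*, whose short splice form lacks a part of the activating region, was the least abundant subunit, with 5 to 52 reads per library. In MCF10A it showed 0.416 and 0.293 CPM in controls and 0.461 and 0.449 CPM with *MALINC1*, and its log2 fold change of 0.38 did not pass (95% interval -0.23 to 1.0, adjusted p = 0.276). The DCIS.COM values were 0.584 and 0.835 CPM in controls and 1.59 and 1.28 CPM with *MALINC1*, and the log2 fold change was 1.03 (95% interval 0.41 to 1.65) with an adjusted p of 0.0102, which missed the threshold of 0.01. The log2 changes differed by 0.65, and this difference did not pass (standard error 0.40, adjusted p = 0.200). *FOSB* lies within the annotated span of *ERCC1* on the opposite strand, without shared exon bases. *ERCC1*, a DNA repair gene, had 29.2 and 39.2 CPM in MCF10A and 77.2 and 98.1 CPM in DCIS.COM, with pLOC-empty and pLOC-*MALINC1*, the same order of groups as for *FOSB*. Its part in the *FOSB* values was not tested.

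**Figure D2:**
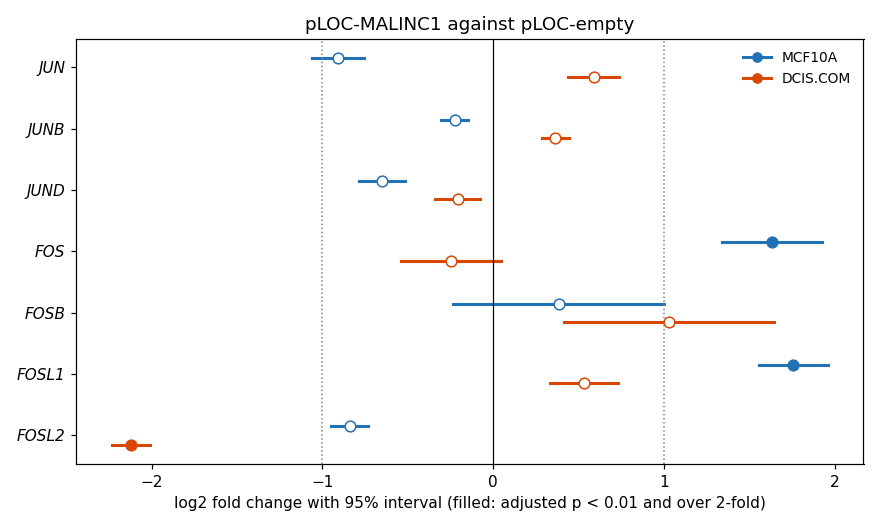
Effect of *MALINC1* on each subunit (x axis, log2 fold change against pLOC-empty) in MCF10A and DCIS.COM, with 95% intervals as bars. Filled points mark DEGs (adjusted p below 0.01, over 2-fold), and dotted lines mark 2-fold. *JUN* and *JUNB* lie on opposite sides of 0 in the lines, and *FOSL2* in DCIS.COM lies farthest from it, at -2.12.

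The difference between the lines in the response to *MALINC1* was over 2-fold and passed the test for 4 subunits (*JUN* in the direction of DCIS.COM, and *FOS*, *FOSL1* and *FOSL2* in the opposite direction), against 9.2% of all genes. The share of all genes was 3.98% in the direction of *JUN* and 5.22% in that of the other 3. At any fold 6 subunits passed, against 35.9% of all genes, with 3 in each direction (all genes 15.6% higher and 20.3% lower in DCIS.COM). The contrasts within the lines share no library, but each of them shares its libraries with the comparisons between the lines, so these values are given side by side only.

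Between the lines with the empty vector, 5 subunits were DEGs, against 28.6% of all genes, with 1 higher (all genes 15.6%) and 4 lower in DCIS.COM (all genes 13.0%). At any fold 6 passed, against 73.9% of all genes, with 1 higher (all genes 37.9%) and 5 lower (all genes 36.0%). The lines did not overlap for any of the 7, as for 90.1% of all genes. *JUN* fell by 4.29 on the log2 scale (standard error 0.069, adjusted p = 3.60e-14) and *JUNB* by 1.62 (standard error 0.037, adjusted p = 6.97e-13). *FOSL2* fell by 1.06 (standard error 0.051, adjusted p = 6.73e-10) and *JUND* by 1.05 (standard error 0.061, adjusted p = 5.00e-09). The last 2 lay near the 2-fold limit, and with *RN7SL1* and *RN7SL2* reads left out of the library sizes they were -0.95 and -0.94 and no longer DEGs. *FOSB* was higher, by 1.0 on the log2 scale (standard error 0.28, adjusted p = 0.00571). That call did not hold without the second library of either line (0.75 without the MCF10A one, 0.74 without the DCIS.COM one), nor with a pseudocount of 0.5 CPM (0.54) or 1 CPM (0.35) or with voom on the recovered reads (1.10, adjusted p = 0.0262), and quantile normalization turned its sign (-0.09). *FOS* fell by 0.75 on the log2 scale (adjusted p = 0.000199), and *FOSL1*, at 0.22, did not pass (95% interval 0.02 to 0.42, adjusted p = 0.0423).

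With pLOC-*MALINC1*, 6 subunits were DEGs between the lines, against 26.6% of all genes, with 1 higher (all genes 14.4%) and 5 lower in DCIS.COM (all genes 12.2%). At any fold all 7 passed, against 73.0% of all genes, with 1 higher (all genes 35.7%) and 6 lower (all genes 37.2%). The lines again did not overlap for any of the 7, as for 90.0% of all genes. *JUN* had a log2 fold change of -2.79, *FOS* one of -2.63 and *FOSL2* one of -2.34. *JUNB* was at -1.03 and *FOSL1* at -1.01, both close to the 2-fold limit, while *FOSB* was at 1.65. *JUND* fell by 0.61 and was not a DEG. The gap of *JUN* between the lines was narrower, and those of *FOS* and *FOSL2* wider, than with the empty vector, which is the same difference as the one tested above. The *FOSL1* call was lost without the second pLOC-*MALINC1* library of MCF10A (-0.96) or of DCIS.COM (-0.91).

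**Figure D3:**
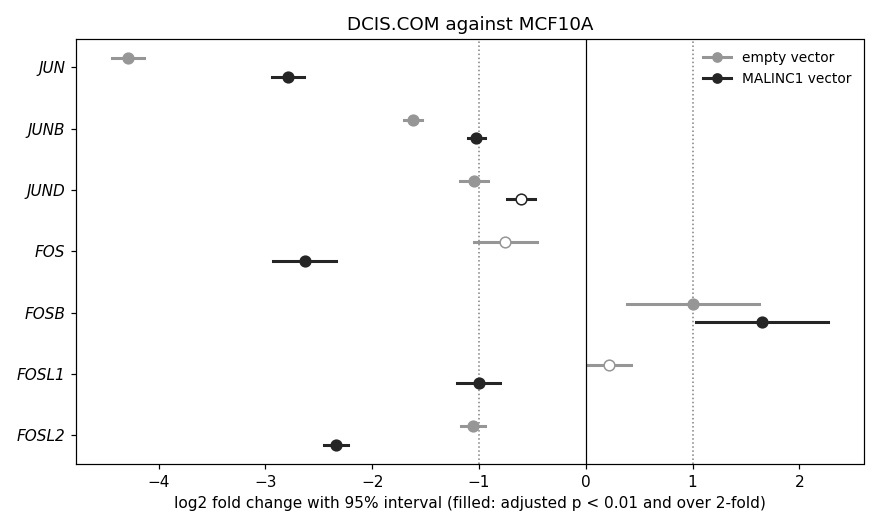
Log2 fold change of each subunit between DCIS.COM and MCF10A (x axis) with the empty vector and with pLOC-*MALINC1*, with 95% intervals as bars. Filled points mark DEGs (adjusted p below 0.01, over 2-fold). *JUN* is farthest to the left with both vectors, at -4.29 and -2.79, and *FOSB* is on the right with both.

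Divided by exon length, the levels can be set against each other as CPM per kb. In MCF10A with pLOC-empty, *JUNB* was highest at 71.1 ± 1.89 CPM per kb, followed by *JUN* at 45.7 ± 2.07, *FOSL2* at 19.2 ± 0.705 and *JUND* at 16.5 ± 0.025. *FOSL1* had 4.12 ± 0.046, *FOS* 1.24 ± 0.037 and *FOSB* 0.051 ± 0.016 CPM per kb. No 2 neighbours in this order overlapped between libraries. With pLOC-*MALINC1*, *JUNB* had 60.8 ± 0.281 and *JUN* 24.3 ± 0.424 CPM per kb, and *FOSL1* had moved ahead of *FOSL2* at 14 ± 0.555. *FOSL2* at 10.7 ± 0.526 and *JUND* at 10.5 ± 0.031 CPM per kb overlapped, ahead of *FOS* at 3.88 ± 0.025.

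In DCIS.COM with pLOC-empty, *JUNB* at 23.1 ± 0.162 CPM per kb was followed by *FOSL2* at 9.21 ± 0.049, *JUND* at 7.95 ± 0.042 and *FOSL1* at 4.81 ± 0.398. *JUN* came next, at 2.32 ± 0.21, ahead of *FOS* at 0.726 ± 0.054 CPM per kb. With pLOC-*MALINC1*, *JUNB* had 29.8 ± 0.382 CPM per kb, and *FOSL1* at 6.98 ± 0.631 and *JUND* at 6.88 ± 0.136 overlapped behind it. *JUN* had 3.50 ± 0.248 CPM per kb, and *FOSL2* had dropped behind *JUN* at 2.11 ± 0.109. *FOS* at 0.608 ± 0.046 and *FOSB* at 0.246 ± 0.039 were lowest.

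Summed over the 7 subunits, the level was 157.8 ± 0.882 CPM per kb with pLOC-empty and 124.2 ± 0.165 with pLOC-*MALINC1* in MCF10A. In DCIS.COM the sums were 48.3 ± 0.451 and 50.1 ± 0.605 CPM per kb. Without the division by length, the sums were 477 ± 9.10 and 336 ± 1.69 CPM in MCF10A, against 144 ± 1.30 and 112 ± 0.31 CPM in DCIS.COM. The DCIS.COM libraries thus held a smaller pool on both scales, and the direction between the vectors of DCIS.COM depended on the scale. These sums and the shares of them below are given as descriptions, with no test.

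*JUNB* made up 45.0% ± 1.45 of the summed level per kb with pLOC-empty and 48.9% ± 0.291 with pLOC-*MALINC1* in MCF10A, and 47.9% ± 0.784 and 59.5% ± 0.045 in DCIS.COM. *JUN* made up 28.9% ± 1.15 and 19.6% ± 0.316 in MCF10A, against 4.81% ± 0.391 and 6.99% ± 0.58 in DCIS.COM. *JUND* made up 10.4% ± 0.074 and 8.43% ± 0.036 in MCF10A, against 16.5% ± 0.067 and 13.7% ± 0.437 in DCIS.COM. The share of *JUN* was thus lower, and that of *JUND* higher, in both DCIS.COM groups than in both MCF10A groups, while the *JUNB* shares of the lines were interleaved.

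*FOSL1* made up 2.61% ± 0.015 of the pool with pLOC-empty and 11.3% ± 0.432 with pLOC-*MALINC1* in MCF10A, and had 9.96% ± 0.732 and 13.9% ± 1.09 in DCIS.COM. *FOSL2* made up 12.2% ± 0.379 and 8.62% ± 0.435 in MCF10A, against 19.1% ± 0.078 and 4.21% ± 0.268 in DCIS.COM. The ratio of *FOSL1* to *FOSL2* per kb was 0.214 ± 0.0055 in MCF10A controls and 1.31 ± 0.116 with *MALINC1*, against 0.522 ± 0.04 and 3.33 ± 0.471 in DCIS.COM. In both lines *FOSL2* was therefore the more abundant of the pair with pLOC-empty, and *FOSL1* with pLOC-*MALINC1*. *FOS* made up 0.785% ± 0.028 and 3.12% ± 0.016 of the pool in MCF10A, against 1.51% ± 0.126 and 1.21% ± 0.077 in DCIS.COM, and *FOSB* stayed below 1% throughout.

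The JUN-class genes together made up 84.4% ± 0.375 with pLOC-empty and 76.9% ± 0.012 with pLOC-*MALINC1* in MCF10A, and 69.2% ± 0.46 and 80.2% ± 0.971 in DCIS.COM. The FOS-class share was thus larger with pLOC-*MALINC1* in MCF10A (15.6% and 23.1%) and smaller in DCIS.COM (30.8% and 19.8%). Taken as shares of reads without the division by length, the FOS class had 31.3% and 34.6% in MCF10A, against 54.1% and 28.2% in DCIS.COM, with the same directions. For *JUND* and *FOS* the direction between the vectors of DCIS.COM depended on the scale. Their shares of reads there were 10.65% ± 0.04 and 11.84% ± 0.267 for *JUND*, and 1.61% ± 0.134 and 1.73% ± 0.125 for *FOS*.

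**Figure D4:**
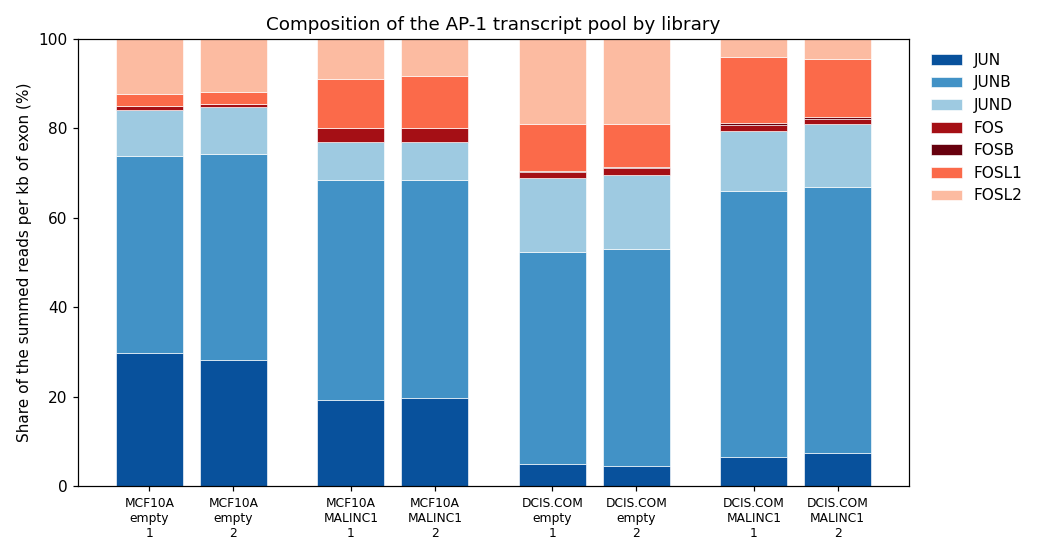
Share of each subunit in the summed reads per kb of exon (y axis, %) in each of the 8 libraries, JUN class in blue and FOS class in red. *JUN* takes 19.6% to 28.9% on average in the MCF10A groups and 4.81% to 6.99% in the DCIS.COM groups, and the *FOSL2* band is narrow in DCIS.COM with pLOC-*MALINC1*, at 4.21%.

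Genes with the most similar profile were sought among 10769 genes with a mean of at least 5 CPM, by Pearson correlation of log2 CPM over the 8 libraries after the mean of each line was removed. These libraries fall into 4 groups, so many genes correlate highly (for *FOS*, 502 genes had r over 0.95), and the values are descriptions. *DUSP6* (r = 0.998) and *DUSP4* (r = 0.998), which encode phosphatases of MAP kinases and are induced by them, were among the 3 genes most like *FOS*, with *PMPCA*. *FOSL1* was closest to *MYC*, *SLCO4A1* and *NOLC1* (r = 0.999 each). *FOSL2* was closest to *BTG1* (r = 0.999), an antiproliferative gene, *ATF4* and *AZGP1*. *JUNB* was closest to the histone genes *H2AX* (r = 0.997), *H2BP1* and *H2AC17*. *JUN* was closest to *STXBP2* (r = 0.998), *PMF1* and *CAVIN3*, *JUND* to *ZNF395* (r = 0.999), *FERMT2* and *GCNT1*, and *FOSB* to *CBLL1* (r = 0.977), *RPTOR* and *RAD51D*. Among the pairs of subunits, the highest correlations were those of *FOS* with *FOSL1* (r = 0.894) and *JUN* with *JUNB* (r = 0.875). The lowest were those of *FOSL1* with *JUND* (r = -0.996), *FOS* with *JUN* (r = -0.910) and with *JUND* (r = -0.894), and *FOSB* with *FOSL2* (r = -0.890).

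Without removal of the line means, the highest correlations reflected the gap between the lines, and 1512 genes had r over 0.95 with *JUN*. The closest were *NAP1L4* (r = 0.999), *SPON2* and *BMP2K* for *JUN*, *ADAM15*, *CD99* and *PLCXD3* for *JUNB*, and *GCNT1*, *HEG1* and *PDE4DIP* for *JUND*. They were *KDSR* (r = 0.997), *F2RL1* and *B3GNT3* for *FOS*, *RPTOR*, *PAXIP1* and *PLXNA2* for *FOSB*, *GEMIN4*, *NSUN2* and *ELOA* for *FOSL1*, and *TMEM139*, *GALNT6* and *C3* for *FOSL2*. *SPON2* shared with *JUN* a low level in DCIS.COM, with 62.0 and 21.1 CPM in MCF10A against 0.166 and 0.438 CPM in DCIS.COM.

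The other genes of the AP-1 pathway were read in lists, which were chosen with earlier results of these data known. Their counts and medians beside those of all genes are therefore descriptions. Proteins of the ATF, BATF and MAF families can pair with AP-1 subunits, and 12 of 15 such genes were tested. In MCF10A 0 of them were higher DEGs with pLOC-*MALINC1* (all genes 2.99%) and 1 was lower (all genes 2.51%). In DCIS.COM 0 were higher (all genes 1.44%) and 2 were lower (all genes 3.08%), *MAFF* (21.2 ± 0.018 and 6.2 ± 0.434 CPM, log2 fold change -1.78) and *MAF* (9.68 ± 0.325 and 4.69 ± 0.069 CPM, log2 fold change -1.04). The medians over the list were -0.05 and -0.20, against 0.00 and 0.01 over all genes. *MAF* was 11.5-fold higher in DCIS.COM than in MCF10A with the empty vector.

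Of 30 other immediate-early genes 24 were tested, and 2 were higher (all genes 2.99%) and 1 lower DEGs (all genes 2.51%) in MCF10A, with a median log2 fold change of 0.05. The higher ones, below 5 CPM and named here after their values were seen, were *EGR1* (0.320 and 0.805 CPM) and *DUSP2* (0.689 and 1.70 CPM). The lower one was *DUSP1*, the phosphatase that inactivates JNK and p38, with 84.3 ± 3.31 and 40.8 ± 0.984 CPM. In DCIS.COM 0 were higher (all genes 1.44%) and 1 was lower (all genes 3.08%), *CCN1*, a matricellular protein gene, with 15.4 ± 0.282 and 7.58 ± 0.327 CPM, and the median was 0.09. At any fold 8 of the 24 were higher and 3 lower in MCF10A (all genes 21.5% and 18.1%), and 9 higher and 4 lower in DCIS.COM (all genes 16.4% and 16.7%). In MCF10A, where *FOS* rose, the median of this list was close to that of all genes, though some of its members rose as well. Between the lines with pLOC-empty, *EGR1* was 16.8-fold and *NR4A1* 24.8-fold higher in DCIS.COM, and *DUSP1* was 22.2-fold lower.

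All 33 genes of kinases and factors upstream of AP-1 were tested. In MCF10A 0 were higher (all genes 2.99%) and 1 lower DEGs (all genes 2.51%) with pLOC-*MALINC1*. The lower one, below 5 CPM and named after its values were seen, was the kinase gene *MAP2K6*, at 2.04 and 0.609 CPM. In DCIS.COM 0 were higher (all genes 1.44%) and 0 lower (all genes 3.08%). The medians were 0.07 in MCF10A and -0.04 in DCIS.COM. At any fold, 10 were higher and 3 lower in MCF10A (all genes 21.5% and 18.1%), and 3 higher and 7 lower in DCIS.COM (all genes 16.4% and 16.7%), with both directions together near the shares of all genes. Between the lines, *HRAS* had 41.8 ± 0.115 CPM in MCF10A and 239 ± 5.70 CPM in DCIS.COM with pLOC-empty, and DCIS.COM descends from MCF10A cells transformed with mutated *HRAS*. *RPS6KA2* was 4.21-fold and *ELK3* 3.38-fold lower in DCIS.COM. Of the 18 genes for turnover and modification of JUN and FOS proteins, all were tested. With pLOC-*MALINC1* 0 were DEGs in either line (all genes 5.5% in MCF10A and 4.53% in DCIS.COM). At any fold 6 were higher and 5 lower in MCF10A (all genes 21.5% and 18.1%), and 2 higher and 3 lower in DCIS.COM (all genes 16.4% and 16.7%). *CSK* was 3.13-fold and *RACK1* 2.02-fold higher in DCIS.COM than in MCF10A with the empty vector.

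Feedback genes of the MAP kinase pathway, which are induced by ERK signals and restrain them, had 16 of 17 members tested. In MCF10A 7 were higher (all genes 2.99%) and 0 lower DEGs (all genes 2.51%) with pLOC-*MALINC1*, and the median log2 fold change was 0.64, against 0.00 over all genes. *DUSP6* had 13.8 ± 1.16 CPM in controls and 65.1 ± 0.092 CPM with *MALINC1*, a 4.71-fold rise (adjusted p = 4.86e-11). *SPRY4* rose 3.6-fold, *PHLDA1* 2.68-fold, *DUSP7* 2.66-fold and *SPRY2* 2.17-fold. In DCIS.COM only *DUSP10* was a DEG, at 5.95 ± 0.397 and 12.1 ± 0.062 CPM (all genes 1.44% higher), and the median was -0.07, against 0.01 over all genes. At any fold 12 were higher and 2 lower in MCF10A (all genes 21.5% and 18.1%), and 3 higher and 5 lower in DCIS.COM (all genes 16.4% and 16.7%). The higher ones in DCIS.COM included *DUSP7* and *SPRY2*, with log2 fold changes of 0.95 and 0.52. The difference between the lines was over 2-fold and passed for 2 genes in the direction of DCIS.COM (all genes 3.98%) and for 6 in the opposite direction (all genes 5.22%). With the empty vector 10 genes of this list were higher (all genes 15.6%) and 3 lower (all genes 13.0%) in DCIS.COM than in MCF10A, with *SPRY1* 50.8-fold, *DUSP6* 9.59-fold and *SPRY4* 8.41-fold higher.

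Of 42 genes known as AP-1 targets 34 were tested. With pLOC-*MALINC1* in MCF10A, 8 were higher (all genes 2.99%) and 2 lower DEGs (all genes 2.51%), with a median log2 fold change of 0.68, against 0.00 over all genes. *HBEGF* had 2.14 ± 0.103 and 18.3 ± 0.50 CPM, an 8.59-fold rise (adjusted p = 3.05e-11), and the other EGF receptor ligands *EREG* and *AREG* rose 4.51-fold and 4.02-fold. The cytokine genes *CXCL8* and *LIF* rose 3.52-fold and 3.47-fold. Of the lower ones, *HMOX1*, named after its values were seen, had 11.9 and 4.99 CPM. In DCIS.COM 0 were higher (all genes 1.44%) and 4 lower DEGs (all genes 3.08%), with a median of -0.31, against 0.01 over all genes. There the interleukin genes *IL1B* (13.0 ± 0.113 and 2.30 ± 0.226 CPM) and *IL1A* (20.1 ± 0.838 and 4.66 ± 0.347 CPM) fell 5.68-fold and 4.31-fold, and *MMP2*, a matrix metalloproteinase gene, and *LAMA3*, a laminin gene, fell 2.05-fold and 2.0-fold. At any fold 24 targets were higher and 5 lower in MCF10A (all genes 21.5% and 18.1%), and 6 higher and 15 lower in DCIS.COM (all genes 16.4% and 16.7%).

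The difference between the lines was over 2-fold and passed for 2 targets in the direction of DCIS.COM (all genes 3.98%) and for 15 in the opposite direction (all genes 5.22%), with a median log2 difference of -1.0. With the empty vector 11 targets were higher (all genes 15.6%) and 10 lower (all genes 13.0%) in DCIS.COM than in MCF10A. *KRT6A*, a keratin gene, had 8865 ± 63.4 CPM in MCF10A and 90.4 ± 4.55 CPM in DCIS.COM. *CXCL8* went the other way, with 2.71 ± 0.03 and 121 ± 16.7 CPM. The targets thus differed between the lines in both directions.

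**Figure D5:**
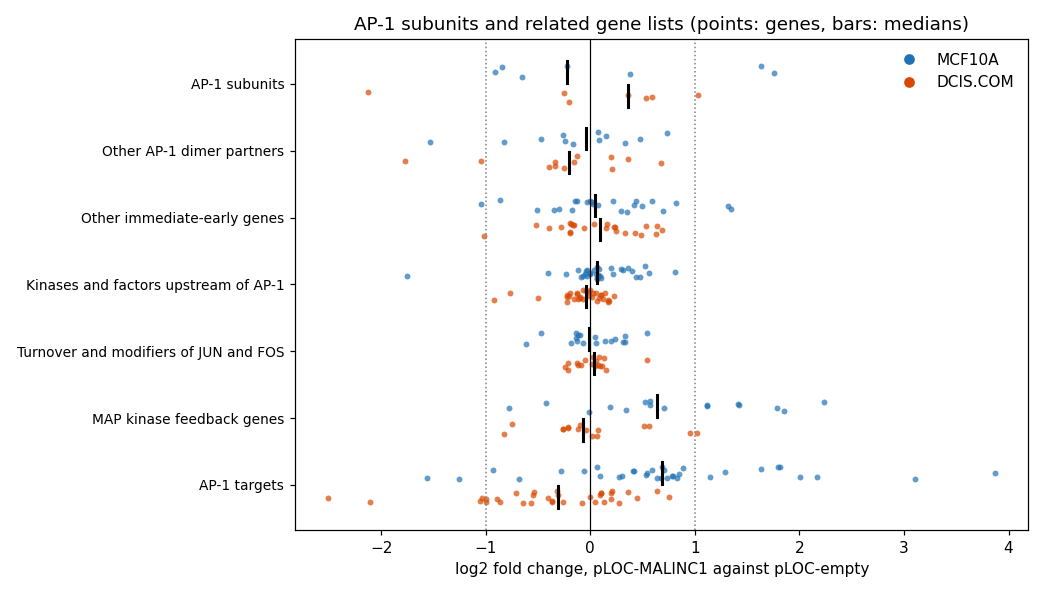
Effect of *MALINC1* (x axis, log2 fold change against pLOC-empty) on the tested genes of each list, in MCF10A and DCIS.COM. Points are genes and black bars medians. The medians of the MAP kinase feedback genes and the AP-1 targets are 0.64 and 0.68 in MCF10A, compared with -0.07 and -0.31 in DCIS.COM.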

How the data were processed

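Per the paper's methods and the labels, the authors made libraries with the ScriptSeq v2 kit, sequenced them as 76 nt paired-end reads, aligned these to hg19 with Rsubread and counted them on genes with featureCounts. The deposited values are normalized log2 CPM from edgeR, and strand setting, low-expression filter and versions are not given in the sources used here. CPM are 2 to the power of the deposited log2 values, so they include the prior count of 2 reads, which understates changes of low genes. Removing it gave whole reads for all values (tolerance 0.05), from which the depth (20604377 to 37550457 reads) and the levels per kb were computed. *RN7SL1* and *RN7SL2* took 8.22% to 15.7% of the reads. Genes without a symbol (346) were tested too.

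limma 3.58.1 in R 4.3.3 (lmFit, eBayes with trend) fitted 4 group means to the 8 libraries and the 13842 genes with 0.5 CPM in at least 2 libraries, which were all genes. DEGs were called at an adjusted p below 0.01 and over 2-fold, the study's thresholds. The fit, tested on simulated data first, assumed a common spread, with 7.98 prior and 4 residual degrees of freedom. Lengths are GENCODE exon lengths on GRCh37. Planned permutation tests of the shares were left out, and the shares are descriptive. The members and gene lists were chosen with earlier results of these data known. Named list genes were DEGs with at least 5 CPM, up to 5 per list and line and 3 per list between the lines, by size of change, and some genes under this rule are not reported here. Python 3.11.15 was used for tables and figures.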

Additional observations from a re-analysis of the deposited data

Results flagged for a closer look

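The effect of *MALINC1* differed between the lines for 6 of the 7 subunits at any fold, against 35.9% of all genes. This was by limma's test of the difference itself (Benjamini-Hochberg over all genes, 4 libraries per line, adjusted p below 0.01). The DCIS.COM minus MCF10A difference in log2 fold change was 1.5 for *JUN* (adjusted p = 1.16e-07), 0.59 for *JUNB* (adjusted p = 1.94e-06) and 0.44 for *JUND* (adjusted p = 0.00115). It was -1.88 for *FOS* (adjusted p = 5.78e-06), -1.23 for *FOSL1* (adjusted p = 8.87e-06) and -1.28 for *FOSL2* (adjusted p = 2.63e-08). *JUN* and *JUNB* changed in opposite directions in the lines, *FOSL1* and *FOSL2* in the same direction by different amounts.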

How the results depend on the processing

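With 2 libraries per group, a lone library left in a group is assumed to vary like the others. The count of DEG subunits in MCF10A (2) became 6 at any fold. In DCIS.COM (1) it became 4 at any fold, and 2 with median centring, quantile normalization, voom on the recovered reads, *RN7SL1* and *RN7SL2* left out, or adjusted p below 0.05, each time by the addition of *FOSB*. With libraries left out in turn it was 1 to 2, with 2 without either MCF10A pLOC-empty library, which only enters the common spread. With DCIS.COM fitted alone by limma, the rises of *JUN* and *FOSL1* with pLOC-*MALINC1* did not pass at any fold (adjusted p = 0.0158 and 0.0219). Between the lines with pLOC-empty, the 5 DEG subunits became 3 without *RN7SL1* and *RN7SL2*. That scaling shifted the median of all genes by 0.10 with pLOC-empty and 0.18 with pLOC-*MALINC1*. The *FOSB* difference between the lines with pLOC-empty reversed to -0.0896 with quantile normalization, and *FOSB* was not tested with a filter of 5 CPM. With pLOC-*MALINC1*, *FOSL1* between the lines lost its call under 7 settings (-0.83 to -0.98) and *JUNB* under 2 (-0.92 and -0.85). The JUN-class share was lower in DCIS.COM by a difference of -5.97 percentage points over all libraries and -15.2 with pLOC-empty, and higher by 3.27 with pLOC-*MALINC1*. The *FOS* share difference (-0.60) reversed to 0.72 with pLOC-empty, and that of *FOSL2* (1.25) to -4.42 with pLOC-*MALINC1* and to -1.21 and -1.25 without the first and second DCIS.COM pLOC-empty library (range with libraries left out -1.25 to 3.79). A replicate block left 2 subunits called in MCF10A and 1 in DCIS.COM and gave 764 and 629 genes over the table against 761 and 627. Replicate differences correlated at -0.15 in MCF10A and 0.11 in DCIS.COM. Such weak values show no clear pairing by number, but cannot exclude a shared batch that touches few genes or has small effects. The labels do not say what the number stands for. Crossed numbers, added after seeing the data, gave 766 genes in MCF10A. A pseudocount of 1 CPM gave 416 and 368 genes and a filter of 5 CPM 487 in MCF10A. The cause was not tested where no construction shows it.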
